A study of Rattus norvegicus with 12 samples.

Results

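Neutrophils were followed here through 9 of their marker genes, Csf3r, S100a8, S100a9, Cxcr2, Mmp9, Retnlg, Cd177, Fcnb and Clec4d. The genes were chosen by symbol, and all 9 were found among the 17337 genes counted in rat whole blood. RNA came from adult male rats of the inbred strains Wistar Kyoto (WKY) and Fischer 344 (F344), aged 70 to 90 days. The 12 libraries formed 4 groups of 3: WKY after chronic restraint stress (CRS), WKY without stress (NS), F344 after CRS, and F344 NS. The rats of all 4 groups shared a first round of contextual fear conditioning, 4 weeks in the home cage, a second round, and decapitation 24 hours after it. In between, CRS rats were held in restraint bags for 2 hours a day over 2 weeks, while NS rats stayed in their cages. Whether each library came from its own rat is not stated outright in the labels, and the p-values cover only the spread from library to library, which may be technical. No group carried a transgene or a drug.

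Neutrophils are short-lived granulocytes that are made in the bone marrow and are the first white cells to enter inflamed tissue. Granulocyte colony-stimulating factor drives their production, and ligands of Cxcr2 draw them out of the marrow into blood. They carry antimicrobial proteins and proteases in granules formed in sequence during maturation, so precursors and mature cells hold different transcripts. In rodents, stress hormones are known to move these cells between marrow, vessel walls and the circulation.

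Few reads stood behind these genes. Genes received 1691956 to 3846263 counts per library, but the 3 most abundant features took 88.9% to 94.6% of them, and all others shared 90796 to 419789 counts. One count was worth 0.202 to 1.14 CPM, a scale made common to all libraries by TMM, edgeR's trimmed mean of M-values. The 9 markers together had 2275 counts over the 12 libraries, between 40 in F344 NS replicate 3 and 331 in WKY NS replicate 1. F344 NS replicates 2 and 3, the libraries with the fewest counts on these genes, stood apart on the first principal component, at 21.1 and 40.5 against -14.3 to 2.22 for the others. WKY CRS replicate 2 stood apart on the third, at 28.8 against -12.3 to 10.4. Levels are compared within a gene and not between genes, because the counts are not scaled to transcript length.

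The markers were checked against genes of immature neutrophils. All 9 were detected, 8 of them in every library and Cxcr2 in all except WKY CRS replicate 2 and F344 NS replicate 3. The precursor genes Mpo, Elane, Prtn3, Ctsg, Camp, Ltf and Ngp, whose granule proteins are made while the cells mature in the marrow, summed to 0 to 6.98 CPM per library, and Ctsg had no count in any library. None of these 7 passed the filter on low counts. In bulk blood, fewer neutrophils and less RNA per neutrophil cannot be told apart.

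Promoter sequence is shown for the 3 markers whose window up to the gene start held a match to a binding motif of PU.1 or C/EBP, transcription factors of granulocyte development. RefSeq (assembly GRCr8, another build than the rn6 of the counts) gave windows for 7 of the 9 genes. S100a8 and Mmp9 are named only. Each line runs 5′ to 3′ on the gene's strand and ends at the annotated gene start, which cut the windows of Csf3r, Cd177 and Clec4d to 156, 203 and 194 bases. Capitals mark the match, to GAGGAA for PU.1 or TTGCNNAA for C/EBP on either strand. The window of Csf3r lies at chr5:143582970-143583125 on the plus strand, that of S100a9 at chr2:178490623-178490872 on the minus strand, and that of Fcnb at chr3:31800189-31800438 on the minus strand.
Csf3r: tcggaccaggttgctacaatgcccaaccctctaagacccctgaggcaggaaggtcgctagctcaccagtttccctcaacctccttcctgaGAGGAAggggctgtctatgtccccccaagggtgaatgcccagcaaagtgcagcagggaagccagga
S100a9: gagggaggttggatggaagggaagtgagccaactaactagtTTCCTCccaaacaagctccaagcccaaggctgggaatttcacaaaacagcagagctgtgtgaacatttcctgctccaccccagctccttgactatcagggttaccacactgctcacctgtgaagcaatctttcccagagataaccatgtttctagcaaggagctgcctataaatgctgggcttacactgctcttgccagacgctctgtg
Fcnb: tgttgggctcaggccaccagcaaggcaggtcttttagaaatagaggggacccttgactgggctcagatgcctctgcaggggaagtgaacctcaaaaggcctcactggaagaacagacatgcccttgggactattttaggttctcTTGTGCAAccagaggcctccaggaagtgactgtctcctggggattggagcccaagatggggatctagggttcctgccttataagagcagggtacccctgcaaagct
The PU.1 letters begin 66 bases before the gene start in Csf3r and 209 bases before it, on the opposite strand, in S100a9. The C/EBP letters begin 106 bases before the start of Fcnb, also on the opposite strand. In full windows of 250 bases, before that cut, 3 of the 7 markers held GAGGAA, with Clec4d as the third, and 1 held TTGCNNAA, against 23.3% and 9.22% of all 33469 promoter windows. A match is a string of letters and not a shown binding site.

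Restraint and strain were compared for each marker in 1 fit of all 12 libraries (edgeR's quasi-likelihood test, Benjamini-Hochberg adjustment over the 2781 genes that passed the filter). The 7 contrasts were CRS against NS in F344, in WKY and as the mean of both, WKY against F344 under NS, under CRS and as the mean of both, and the difference between the strains in the CRS response. Of the 9 markers, 8 passed the filter, which asked for about 3.24 unscaled CPM in 3 libraries. S100a8 reached that in 1 library, WKY NS replicate 1. Mmp9 reached it in 3 libraries, all F344, and Cd177 in 3 libraries of 3 groups.

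No marker passed in any contrast: 0 of 8 were called in each of the 7, with adjusted p-values between 0.423 and 1.00. The same test called 0% of all tested genes for CRS in F344, 0% for CRS in WKY and 0.036% for the mean CRS response. It called 0.683% for WKY against F344 under NS, 1.29% under CRS, 3.74% for the strain mean and 0% for the difference in response. Among the markers, 1 had an unadjusted p under 0.05 for CRS in F344, where 4.67% of all tested genes did, and 0 did for CRS in WKY, where 5.79% did. The number was 1 for strain under NS (9.31% of all genes), 0 under CRS (11%) and 2 for the difference in response (3.81%). For both means, over strains and over treatments, it was 0, beside 7.08% and 14.7% of all genes. A DESeq2 Wald test also called 0 markers in each contrast, but for strain under NS it gave no adjusted p for Cd177, Clec4d and Mmp9, so 5 of the 8 had one there.

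**Figure D1:**
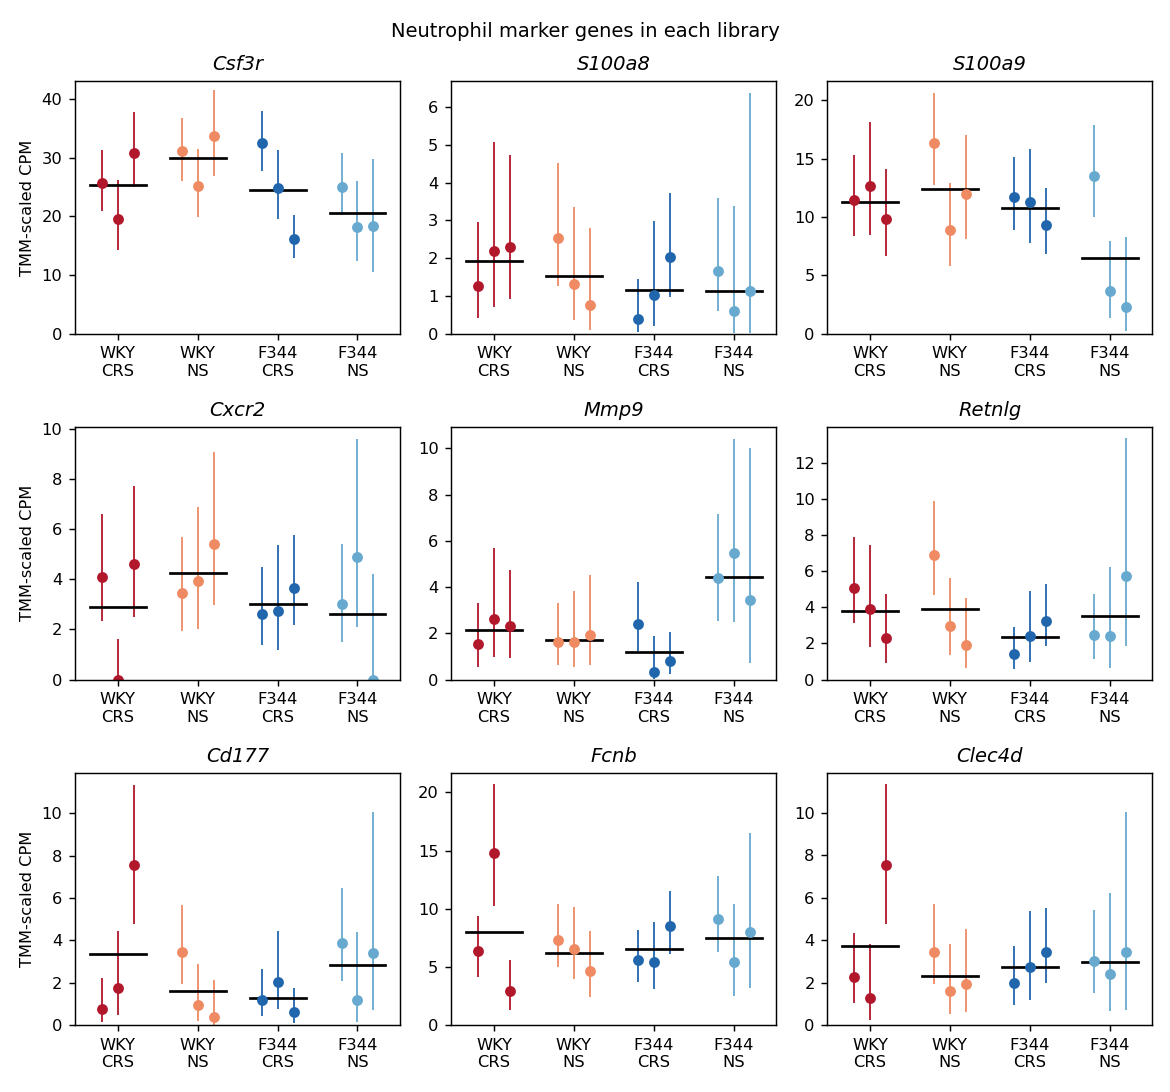
Level of each of the 9 neutrophil markers in each library, in TMM-scaled CPM, for WKY CRS, WKY NS, F344 CRS and F344 NS. Points are libraries, error bars exact Poisson 95% counting intervals and black bars group means. The groups overlap for most genes. F344 NS lies above F344 CRS for Mmp9, and Cxcr2 is at 0 in 1 WKY CRS and 1 F344 NS library.

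Csf3r, the receptor for granulocyte colony-stimulating factor, had the most counts of the 9, with 990. It stood at 25.7, 19.6 and 30.9 CPM in WKY CRS, 31.1, 25.2 and 33.7 CPM in WKY NS, 32.5, 24.9 and 16.2 CPM in F344 CRS and 25.1, 18.3 and 18.3 CPM in F344 NS. All 3 WKY NS libraries lay above the 3 F344 NS libraries, by a narrow margin, while CRS and NS overlapped in both strains. The group means were 25.4 ± 5.64 CPM in WKY CRS, 30.0 ± 4.33 in WKY NS, 24.6 ± 8.14 in F344 CRS and 20.6 ± 3.93 in F344 NS (SD, n = 3 each). WKY NS was thus highest and F344 NS lowest, and no neighbours in the order of means differed beyond their spread. The log2 difference between WKY NS and F344 NS was 0.51 (95% interval -0.13 to 1.15, edgeR's quasi-likelihood test, adjusted p = 0.664). Without F344 NS replicates 2 and 3 it was 0.30, with replicate 1 alone left in that group. Without replicate 1 it was 0.73 (adjusted p = 0.327, same test), and without the low count filter 0.74 (adjusted p = 0.884). The mean CRS response was -0.01 on the log2 scale, with an interval of -0.45 to 0.43, or a ratio of CRS to NS between 0.735 and 1.35. Csf3r gave the narrowest intervals of the 8 tested markers.

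Cxcr2, the chemokine receptor that brings mature neutrophils into blood and tissue, was at 4.08, 0.0 and 4.60 CPM in WKY CRS, 3.45, 3.93 and 5.42 CPM in WKY NS, 2.62, 2.73 and 3.65 CPM in F344 CRS and 3.03, 4.87 and 0.0 CPM in F344 NS. Its 2 empty libraries belong to different strains and treatments, and the groups overlapped otherwise. A count of 0 allows up to 1.31 CPM in WKY CRS replicate 2 and 3.43 CPM in F344 NS replicate 3, and 3 of the 10 other libraries, at 2.62, 2.73 and 3.03 CPM, lay under the limit of the F344 library. Log2 differences over the 7 contrasts ran from -0.43 to 0.46, with adjusted p-values of 0.848 and above. The lowest of these, for CRS in WKY, was 0.05 without WKY CRS replicate 2, and the highest, for strain under NS, was 0.51 without F344 NS replicates 2 and 3, 0.18 without replicate 3 alone and 0.89 without replicate 2 alone.

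S100a8 and S100a9 encode the subunits of calprotectin, an abundant calcium- and zinc-binding protein of the neutrophil cytosol. S100a9 stood at 11.5, 12.7 and 9.86 CPM in WKY CRS, 16.4, 8.85 and 12.0 CPM in WKY NS, 11.7, 11.3 and 9.34 CPM in F344 CRS and 13.5, 3.65 and 2.29 CPM in F344 NS. The 2 low libraries are F344 NS replicates 2 and 3, and the other 10 lay between 8.85 and 16.4 CPM. S100a9 averaged 12.4 ± 3.77 CPM in WKY NS and 6.49 ± 6.13 CPM in F344 NS (SD, n = 3 each), a log2 difference of 0.66 (SE 0.39, adjusted p = 0.643).

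This difference turned on which F344 NS libraries were used. Without F344 NS replicate 1 it was log2 2.00 (SE 0.50, adjusted p = 0.0332, edgeR's quasi-likelihood test) and passed. The strain mean, log2 0.37 (adjusted p = 0.594), likewise became 1.04 (SE 0.29, adjusted p = 0.0361). Without replicates 2 and 3, and with replicate 1 alone assumed to vary like the other groups, the NS difference was -0.06 (adjusted p = 0.992). For CRS against NS in F344, S100a9 had a log2 difference of 0.44, which was 1.78 (adjusted p = 0.142) without replicate 1 and -0.26 without replicates 2 and 3. Replicates 2 and 3 also had the fewest counts on the markers, 73 and 40, which include those of S100a9. One count was worth most in these libraries, 0.609 and 1.14 CPM. Outside the 3 most abundant features, replicate 3 had the fewest counts of all libraries, 90796. Replicate 2, with 195564, had more there than WKY NS replicate 3, with 170507. The part of depth was not tested.

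S100a8 had 57 counts in all and was not tested. It stood at 1.27, 2.18 and 2.30 CPM in WKY CRS, 2.53, 1.31 and 0.774 CPM in WKY NS, 0.404, 1.02 and 2.03 CPM in F344 CRS and 1.66, 0.609 and 1.14 CPM in F344 NS. All 4 groups overlapped. When genes were tested without a filter, its log2 differences ran from -0.01 to 0.57, with adjusted p-values of 0.878 and above.

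Mmp9, a granule protease that cuts collagen and gelatin, gave the smallest unadjusted p-values of the markers. Its levels were 1.53, 2.62 and 2.30 CPM in WKY CRS, 1.61, 1.64 and 1.94 CPM in WKY NS, 2.42, 0.341 and 0.812 CPM in F344 CRS and 4.41, 5.48 and 3.43 CPM in F344 NS. F344 NS was above each other group in all of its 3 libraries. The counts behind these levels were small, with 6, 6 and 7 in WKY CRS, 7, 5 and 5 in WKY NS, 12, 1 and 4 in F344 CRS and 16, 9 and 3 in F344 NS.

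For CRS against NS in F344, Mmp9 averaged 1.19 ± 1.09 CPM in F344 CRS and 4.44 ± 1.03 CPM in F344 NS (SD, n = 3 each). The log2 difference was -1.79 (95% interval -3.03 to -0.55, unadjusted p = 0.00578, edgeR's quasi-likelihood test), which did not pass after adjustment (adjusted p = 0.851). It ranked 18 among the 2781 tested genes. Mmp9 entered that set through F344 NS replicates 1 and 2 and F344 CRS replicate 1, so its rank is not independent of its F344 levels. The groups did not overlap, as was so for 11.9% of all tested genes, and Mmp9 was the only marker of 8 for which they did not. The difference lay between -2.78 and -1.43 over the 18 alternatives in which Mmp9 was tested, with adjusted p-values of 0.224 to 1.00. Without F344 NS replicates 2 and 3 it was -1.69, with the lone library assumed to vary like the other groups. In WKY the CRS difference was 0.28, and the strains' CRS responses differed by 2.08 (95% interval 0.28 to 3.87, unadjusted p = 0.0244, adjusted p = 0.993). The contrasts of F344 CRS, of strain under NS and of the response use the same 3 F344 NS libraries.

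Between the strains under NS, Mmp9 averaged 1.73 ± 0.18 CPM in WKY and 4.44 ± 1.03 CPM in F344 (SD, n = 3 each). The log2 difference was -1.39 (SE 0.61, adjusted p = 0.423), and -1.30 without F344 NS replicates 2 and 3. With Csf3r, which was higher in WKY, Mmp9 was 1 of 2 markers whose strains did not overlap under NS, beside 14% of all tested genes. Under CRS no marker's strains were apart, beside 19.6% of genes. In WKY, CRS and NS overlapped for every tested marker, beside 10.1% of genes that did not.

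Cd177 is a surface protein of neutrophils that binds the endothelial adhesion molecule PECAM1. It was at 0.764, 1.74 and 7.56 CPM in WKY CRS, 3.45, 0.983 and 0.387 CPM in WKY NS, 1.21, 2.05 and 0.609 CPM in F344 CRS and 3.86, 1.22 and 3.43 CPM in F344 NS. WKY CRS replicate 3, with 23 counts, stood far above the rest of its group, and the 4 groups overlapped. The log2 difference between the strains under CRS was 1.43 (95% interval -0.03 to 2.90, adjusted p = 0.469, edgeR's quasi-likelihood test). Without WKY CRS replicate 3 it was -0.05. The difference in CRS response was 2.15 with all libraries (unadjusted p = 0.0485, adjusted p = 0.993), 0.66 without WKY CRS replicate 3 and 3.43 without WKY NS replicate 1 (unadjusted p = 0.00708, adjusted p = 0.996).

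Clec4d, a C-type lectin receptor that binds mycobacterial glycolipids, was high in the same library. Its levels were 2.29, 1.31 and 7.56 CPM in WKY CRS, 3.45, 1.64 and 1.94 CPM in WKY NS, 2.02, 2.73 and 3.45 CPM in F344 CRS and 3.03, 2.44 and 3.43 CPM in F344 NS. Apart from WKY CRS replicate 3, the libraries lay between 1.31 and 3.45 CPM. Log2 differences ran from -0.26 to 0.72 over the 7 contrasts, with adjusted p-values of 0.807 and above. For strain under CRS the difference was 0.46, and -0.52 without WKY CRS replicate 3.

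Fcnb, a ficolin that binds microbial sugars and is stored in granules, was at 6.37, 14.8 and 2.96 CPM in WKY CRS, 7.37, 6.55 and 4.64 CPM in WKY NS, 5.65, 5.46 and 8.52 CPM in F344 CRS and 9.10, 5.48 and 8.01 CPM in F344 NS. WKY CRS held both the highest library, replicate 2, and the lowest, replicate 3. Its log2 differences ran from -0.29 to 0.51, with adjusted p-values of 0.899 and above. Without WKY CRS replicate 2, the CRS difference in WKY was -0.39 and the strain difference under CRS -0.47, against 0.30 and 0.22 with it. In WKY CRS replicate 2 Cxcr2 was at 0, and the precursor genes Camp, Ngp, Elane and Prtn3 stood at 3.49, 1.74, 1.31 and 0.436 CPM, the highest precursor sum of the 12 libraries. Their part in the level of Fcnb was not tested.

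Retnlg, a secreted resistin-like protein of rodent myeloid cells, was at 5.09, 3.93 and 2.30 CPM in WKY CRS, 6.91, 2.95 and 1.94 CPM in WKY NS, 1.41, 2.39 and 3.25 CPM in F344 CRS and 2.48, 2.44 and 5.72 CPM in F344 NS. Every pair of groups overlapped. The log2 difference was 0.56 for the strain mean (95% interval -0.18 to 1.31, adjusted p = 0.514, edgeR's quasi-likelihood test) and -0.25 for the mean CRS response (adjusted p = 0.965). Without WKY NS replicate 1 these were 0.20 and 0.14.

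**Figure D2:**
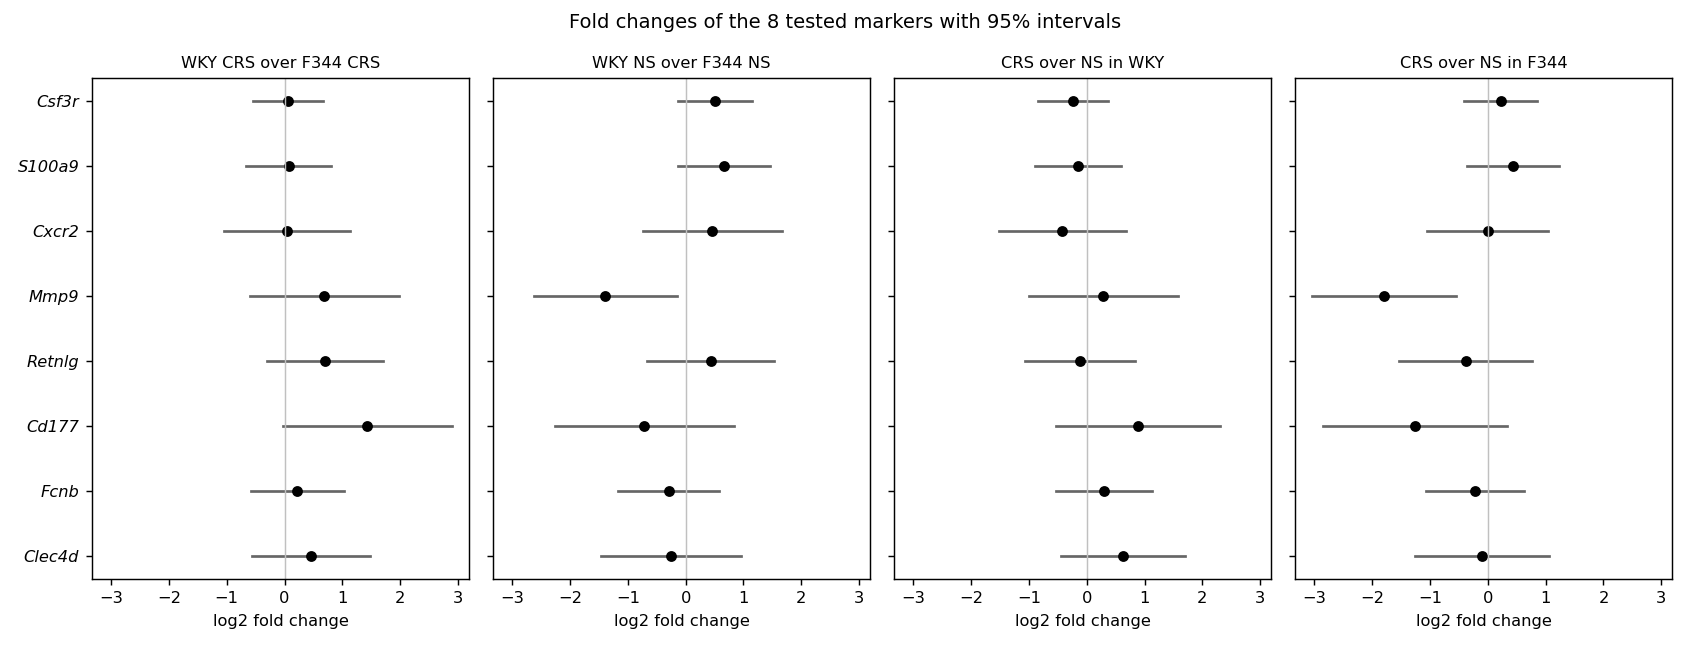
Log2 differences of the 8 tested markers with 95% intervals from the edgeR fit, for WKY against F344 after CRS and under NS and for CRS against NS in WKY and in F344. Intervals are narrowest for Csf3r. Those that leave out 0 belong to Mmp9, for strain under NS and CRS in F344, and neither passed after adjustment.

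Over the 8 tested markers, the signs were mixed after restraint. For CRS in F344, 2 of 8 were positive with a median log2 difference of -0.16, against 51.0% and 0.01 for all 2781 genes. Without the low count filter, 5 of the 8 were positive there, with a median of 0.18. In WKY, 4 of 8 were positive with a median of 0.08, against 51.2% and 0.02. Between the strains, 8 of 8 were positive under CRS (median 0.34), where 50.3% of all genes were (median 0.01), and 4 of 8 under NS (median 0.09), where 49.3% were (median -0.01). For the strain mean, 6 of 8 were positive (median 0.27, all genes -0.01). The 8 of 8 under CRS became 4 of 8, with a median of 0.06, without WKY CRS replicate 3. It was 5 of 8 without the filter, 6 of 8 with limma-voom, and 6 to 8 of 8 with any other single library left out.

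The summed level of the 9 markers was 58.6, 58.9 and 70.3 CPM in WKY CRS, 76.2, 53.1 and 62.7 CPM in WKY NS, 60.0, 52.9 and 47.9 CPM in F344 CRS and 66.2, 44.5 and 45.8 CPM in F344 NS. CRS and NS overlapped in each strain, and the strains overlapped under both treatments. Group means were 62.6 ± 6.69 CPM in WKY CRS, 64.0 ± 11.6 in WKY NS, 53.6 ± 6.06 in F344 CRS and 52.1 ± 12.2 in F344 NS (SD, n = 3 each).

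**Figure D3:**
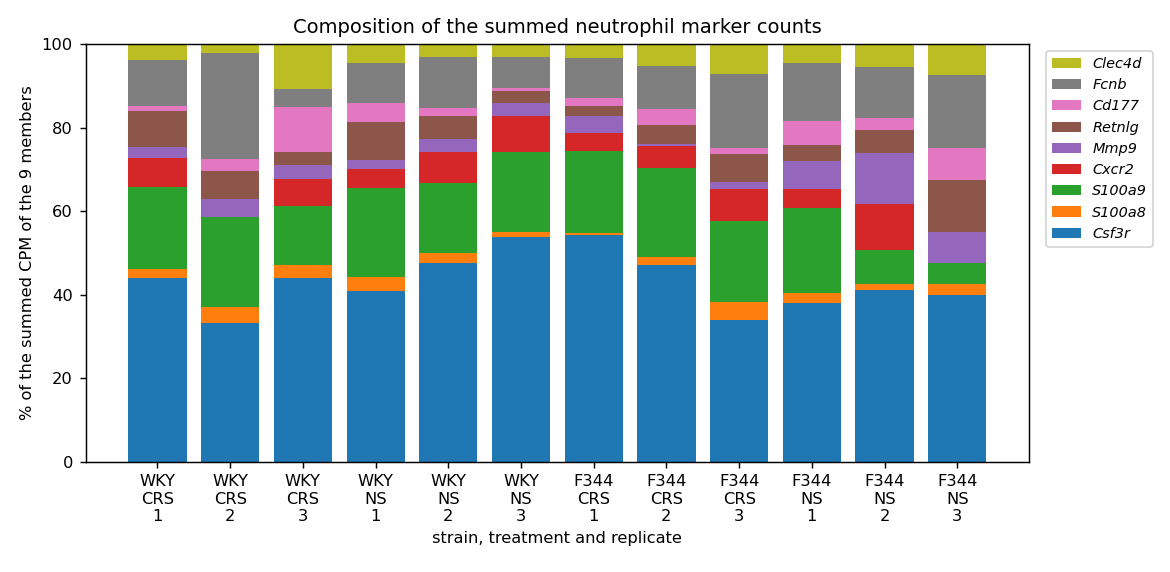
Share of each marker in the summed CPM of the 9 markers, per library, with WKY CRS, WKY NS, F344 CRS and F344 NS from left to right. The shares are of counts not scaled to transcript length. Csf3r takes 33.3% to 54.2%, and Fcnb reaches 25.2% in WKY CRS replicate 2.

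The makeup of this sum varied between libraries of the same group. The share of Csf3r lay between 33.3% and 54.2%, that of S100a9 between 5.0% and 21.5% and that of Fcnb between 4.21% and 25.2%. S100a9 had its lowest share in F344 NS replicate 3, and Fcnb its highest in WKY CRS replicate 2. Spread within groups was set against counting error by the chi-square per degree of freedom, which is about 1 where counting alone makes libraries differ. It was 5.29 for Cd177, 4.98 for Csf3r, 4.20 for Fcnb, 3.45 for S100a9, 2.80 for Clec4d, 2.61 for Retnlg, 2.12 for Cxcr2, 1.39 for S100a8 and 1.16 for Mmp9. The median of the 2506 tested genes with total counts in the range of the tested markers, 81 to 990, was 1.69. Mmp9 lay below it and the other 7 tested markers above, while S100a8, with 57 counts, lay outside the range. This measure rises with a gene's counts where libraries differ beyond counting error, so it does not rank the markers by relative spread. The relative spread estimated by edgeR (biological coefficient of variation) was lowest for Csf3r, at 0.239, and highest for Cd177, at 0.475.

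Correlations between the markers across libraries were mixed in sign. Over the 28 pairs of the 8 tested markers and 12 libraries, Pearson correlations of log2 CPM ran from -0.66 to 0.70 with a median of -0.04, and 13 were positive. Unadjusted, 3 pairs had a permutation p under 0.05, and 0 passed after adjustment over the 28. Counts per library were low, such as 1 to 23 for Cd177, and counting error pulls correlations towards 0. The correlations therefore cannot decide whether the markers moved together.

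Cd177 and Clec4d had the highest correlation (r = 0.700, permutation p = 0.00983, adjusted 0.272). Spearman's rho was 0.566 (permutation p = 0.0606, adjusted 0.494). Without the 2 libraries farthest from the median of Cd177, WKY CRS replicate 3 and F344 NS replicate 1, r was 0.391, so the relation rested largely on these. Csf3r and S100a9 followed (r = 0.594, permutation p = 0.0374, adjusted 0.349; rho = 0.545, permutation p = 0.0706), with r = 0.595 without the 2 farthest libraries. Cxcr2 and Fcnb went opposite ways (r = -0.664, permutation p = 0.0194, adjusted 0.272; rho = -0.613, permutation p = 0.0385). Without WKY CRS replicate 2 and F344 NS replicate 3, where Cxcr2 was at 0, r was -0.455.

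**Figure D4:**
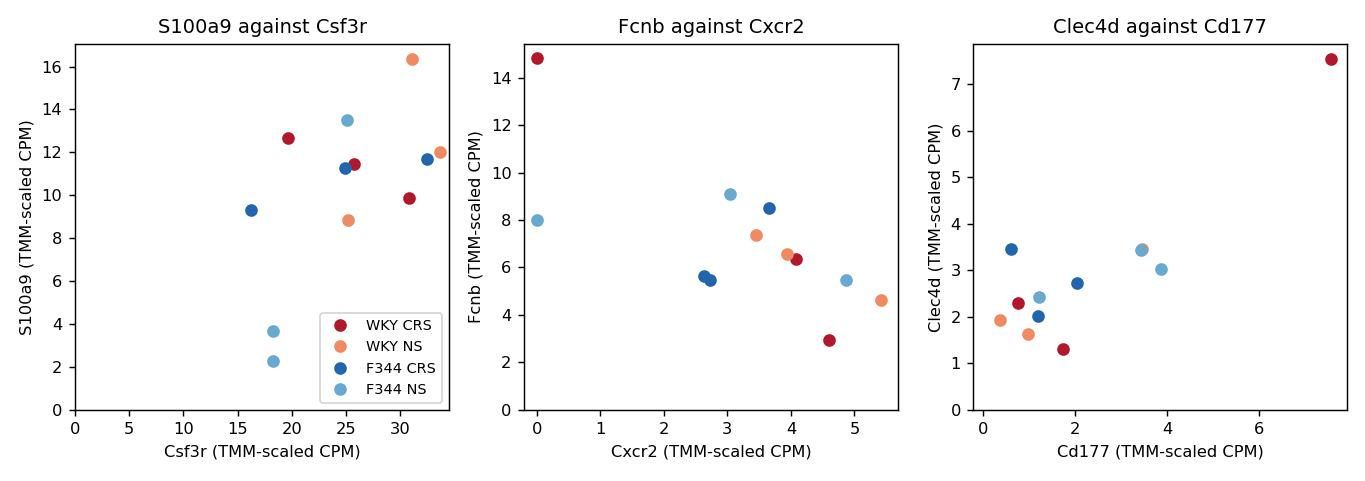
TMM-scaled CPM of the 3 pairs of markers with an unadjusted permutation p under 0.05, 1 point per library, coloured by group. WKY CRS replicate 3 sits apart for Cd177 and Clec4d, and the libraries with no Cxcr2 count sit at the left for Cxcr2 and Fcnb.

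The tested genes with the pattern most like the markers, by Pearson correlation over the 12 libraries with the mean standardised log2 CPM of the 8, were Myadm (0.790), Acot7 (0.762), Parp9 (0.746), Lmo2 (0.743) and Trafd1 (0.743). They were the top 5 of all tested genes and carry no test.

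Other genes of neutrophil biology, 72 in 6 lists by role, were set beside the markers. The files held 71 of them, and 22 passed the filter. Of the 22, 0 passed in either direction for CRS in F344, in WKY or as the mean, and 0 for the strains under NS or for the difference in response. Between the strains 1 was higher in WKY under CRS and 2 in the strain mean, and none was lower. For CRS in WKY, 19 of 22 had a positive log2 difference (median 0.27), beside 51.2% of all tested genes (median 0.02). For CRS in F344 the number was 12 of 22 (median 0.03). For the strain mean 20 of 22 had one (median 0.28), beside 49.1% (median -0.01), with 18 of 22 under CRS (median 0.405) and 15 of 22 under NS (median 0.26). These sign counts, and those within the lists below, were not recomputed with libraries left out. The genes were measured in the same libraries, so their signs are not independent of each other.

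The genes that passed were Lyz2 and Cybb, both also made by monocytes. Lyz2, the antibacterial enzyme lysozyme, averaged 119 ± 22.3 CPM in WKY CRS, 98.4 ± 6.47 in WKY NS, 61.3 ± 5.74 in F344 CRS and 47.8 ± 3.54 in F344 NS (SD, n = 3 each). Every WKY library lay above every F344 library, with a strain mean of log2 1.00 (SE 0.20, adjusted p = 0.00112, edgeR's quasi-likelihood test). Cybb, the catalytic subunit of the phagocyte NADPH oxidase, averaged 6.25 ± 0.577 CPM in WKY CRS, 5.03 ± 0.723 in WKY NS, 1.74 ± 0.691 in F344 CRS and 1.65 ± 0.689 in F344 NS. Its strain mean was log2 1.73 (SE 0.33, adjusted p = 0.000859), and under CRS alone it was 1.88 (SE 0.43, adjusted p = 0.0114). The call under CRS was lost without WKY CRS replicate 1 (adjusted p = 0.0649), F344 CRS replicate 1 (0.066) or F344 CRS replicate 3 (0.152), and with no low count filter (0.0895).

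Within the lists, 3 of 17 granule genes, 9 of 18 receptor and adhesion genes, 1 of 7 ligands, 5 of 6 NADPH oxidase genes, 3 of 7 transcription factors and 1 of 16 relatives of the markers passed the filter. Among the receptor and adhesion genes with the most counts were Itgb2, the shared chain of the leukocyte integrins, and Selplg, a glycoprotein that lets leukocytes roll on vessel walls. Itgb2 averaged 23.0, 23.7, 21.0 and 17.3 CPM in WKY CRS, WKY NS, F344 CRS and F344 NS. Selplg stood at 16.1, 14.5, 14.6 and 14.7 CPM in that order, and neither gene passed in any contrast. All 9 receptor and adhesion genes had a positive log2 difference between the strains under CRS (median 0.39), beside 50.3% of all tested genes, and 5 of 9 under NS (median 0.25), and 0 passed.

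Of the ligands, the cytokine Il1b averaged 12.2, 9.39, 9.14 and 9.28 CPM in the 4 groups, in the same order, and did not pass. Osm had 17 counts and Cxcl3 had 2, while Csf3 and Cxcl1, ligands of Csf3r and Cxcr2, had 0 in all libraries. The transcription factors Stat3, which acts below Csf3r, Spi1, which encodes PU.1, and Cebpb, of the C/EBP family, had mean levels of 5.70, 3.96 and 3.15 CPM over the 12 libraries. None of these 3 passed, and the smallest adjusted p was 0.257, for Cebpb between the strains under CRS (log2 1.28). Among relatives, S100a4 averaged 4.36 CPM in WKY CRS, 2.61 in WKY NS, 1.78 in F344 CRS and 1.07 in F344 NS, with a strain mean of log2 1.14 (adjusted p = 0.15). Clec7a and S100a11 had 64 and 63 counts and were not tested.

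**Figure D5:**
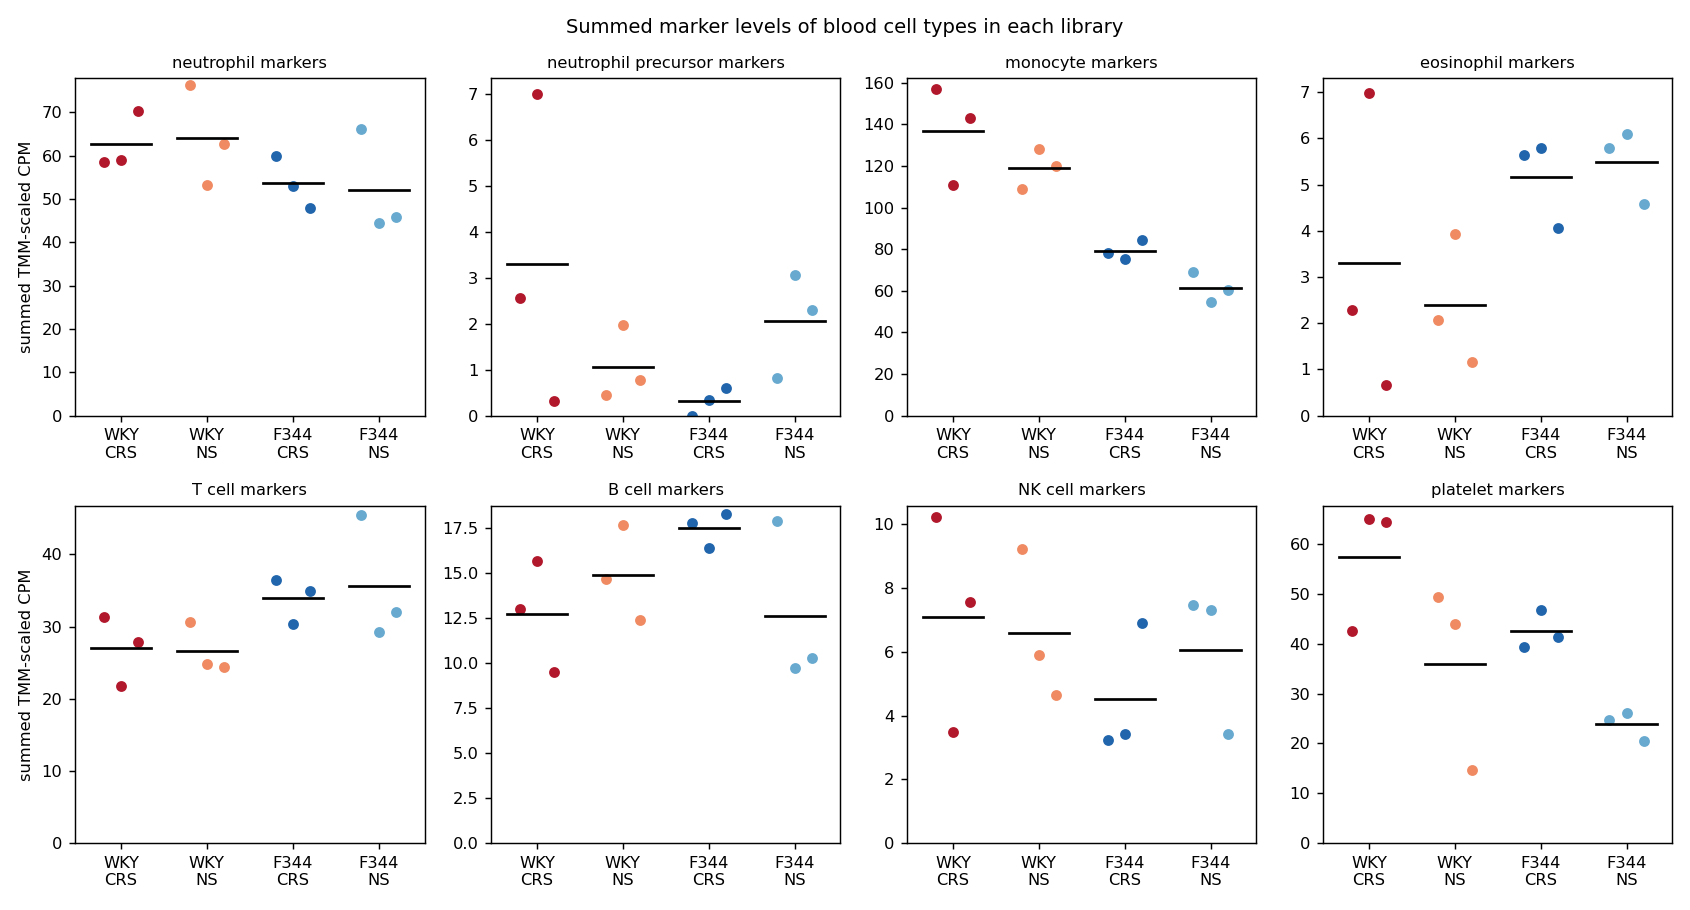
Summed CPM per library of the neutrophil markers and of marker lists of other blood cells, for WKY CRS, WKY NS, F344 CRS and F344 NS. Points are libraries and black bars group means. Neutrophil sums overlap between the strains, while monocyte sums are 109 to 157 CPM in WKY and 54.8 to 84.4 CPM in F344, most of it Lyz2.

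Marker lists of other blood cells gave the setting for these strain comparisons. The 7 monocyte genes found summed to 111 to 157 CPM in WKY CRS, 109 to 128 in WKY NS, 75.4 to 84.4 in F344 CRS and 54.8 to 69.2 in F344 NS, and no library of WKY overlapped with F344. Lyz2 makes up most of this sum. The 6 other genes, a sum chosen after seeing the data, came to 15.7 to 20.7 CPM in WKY CRS, 17.5 to 23.6 in WKY NS, 16.9 to 19.1 in F344 CRS and 9.15 to 17.4 in F344 NS, with strains that overlapped under CRS and lay just apart under NS. Of these, Csf1r and Fcgr1a were tested, and their strain means had opposite signs. Csf1r, with 449 counts, was at log2 0.52 (adjusted p = 0.31, edgeR's quasi-likelihood test). Fcgr1a, with 89 counts, was at log2 -0.43 (adjusted p = 0.712, same test). Lyz2 is also a neutrophil granule gene, and the part of monocytes in its strain difference was not tested. The sums of 7 T cell genes were 21.8 to 31.3 CPM in WKY CRS, 24.4 to 30.6 in WKY NS, 30.4 to 36.5 in F344 CRS and 29.2 to 45.5 in F344 NS. B cell genes summed to 9.53 to 15.7 CPM in WKY CRS and 16.4 to 18.3 in F344 CRS, without overlap, and to 12.4 to 17.7 CPM in WKY NS and 9.75 to 17.9 in F344 NS. Under CRS the strains did not overlap for 19.6% of all tested genes, and 0 of the 3 tested B cell genes passed. NK cell sums, 3.23 to 10.2 CPM over all libraries, and red cell sums, 625 to 1400 CPM, showed strains that overlapped under both treatments.

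Platelet sums were 42.5 to 65.0 CPM in WKY CRS, 14.7 to 49.3 in WKY NS, 39.4 to 46.8 in F344 CRS and 20.6 to 26.2 in F344 NS, so CRS lay above NS in F344. For that comparison 11.9% of all tested genes also did not overlap, and 0 of the 4 tested platelet genes passed. F344 NS replicates 2 and 3 had 43 and 18 platelet counts. Eosinophil sums were 0.657 to 6.98 CPM and those of basophils or mast cells 0.0 to 2.62 CPM, where Cpa3 had no count. Besides Lyz2, 2 markers in these lists passed, Siglec5 of eosinophils and Pf4, a platelet chemokine that was higher in WKY (strain mean log2 0.80, adjusted p = 0.0483, edgeR's quasi-likelihood test). The call for Pf4 held in 7 of 19 alternatives. The part of these cells in the levels of the neutrophil markers was not tested.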

How the data were processed

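Whole-blood RNA from 12 rat libraries was sequenced on an Ion Proton, with blood taken into PAXgene tubes per the labels' protocols. Tools listed in the submitters' processing notes are TopHat2 2.1.0, cutadapt 1.14 and Cufflinks 2.2.1, with build rn6. How reads were counted (program, annotation, strand) is not given in the sources used here. The authors deposited whole-number read counts per gene, not normalized. Rows that name no gene held 80.9% to 86.6% of counts, mostly reads ambiguous between features (78.3% to 83.6%), and stayed out of library sizes and tests. In RefSeq GRCr8, 0 of the 9 markers overlap another gene, and 2 (Csf3r and Mmp9) have a neighbour within 5 kb. As the counts are on rn6 with an unknown annotation, this cannot show how many reads of the markers were ambiguous.

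Counts were filtered with filterByExpr (minimum count 10), scaled by TMM and fitted in edgeR 4.0.16 (R 4.3.3) as 4 group means without covariates. The quasi-likelihood test was adjusted by Benjamini-Hochberg over all 2781 genes, with a threshold of 0.05. It was also run on counts simulated with the spread fitted to these data, and its recovery of known changes is not given here. CPM are TMM-scaled, correlations used 100000 permutations, and log2 CPM a prior count of 2. The 95% intervals of log2 differences come from the edgeR fit and include the spread between libraries. The 95% counting intervals of single libraries and the floor of 3 counts for a count of 0 cover counting error only. The markers, gene lists and tests were chosen with earlier results of these data known. Beside the markers, named genes were those of each role list past the threshold, otherwise the 3 with the highest mean CPM, and the 5 genes most like the markers; 1 gene under this rule is not reported here. Alternatives were other scalings and tests (DESeq2 1.42.0, limma 3.58.1), no filter, the 3 most abundant features removed, a replicate block, and libraries left out.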

Additional observations from a re-analysis of the deposited data

How the results depend on the processing

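The count of markers called was 0 in each of the 7 contrasts under the 7 alternatives that kept all groups or left out F344 NS replicates 2 and 3 together, with 3 markers lacking an adjusted p in DESeq2 for strain under NS. Leaving out 1 library at a time gave 0 to 1 marker for WKY against F344 under NS and for the strain mean, and 0 in the other 5 contrasts. The 1 was S100a9 without F344 NS replicate 1. Among 1057 recomputed log2 differences, 99 changed sign, in 35 of the 56 marker and contrast pairs. None of these 99 had an unadjusted p under 0.05 in either fit. Cd177 between the strains under CRS, log2 1.43, was the largest of them.

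Replicate numbers are shared by all groups. Same-numbered libraries correlated at -0.09 to 0.20 in their deviations from group means. Between CRS and NS in F344 the values were 0.204, 0.115 and 0.0347. With 3 libraries a group, such correlations cannot decide whether the numbers pair the libraries, and the main fit left the numbers out. With the replicate block, 0 markers were called in each contrast. Calls over all genes were 0, 0 and 2 for CRS in F344, in WKY and as the mean, 25, 42 and 120 for strain under NS, under CRS and as the mean, and 0 for the difference in response.

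Calls over all genes moved by more than 1.5 times in some fits. Without the filter (15012 genes), 5, 8, 6 and 3 genes were called for CRS in F344, in WKY, as the mean and for the difference in response, against 0, 0, 1 and 0, and the median log2 of all genes for the difference in response was -0.24. Limma-voom called 2 for CRS in F344 and 2 for the mean CRS response, and DESeq2 called 3 for the mean CRS response. Without F344 NS replicates 2 and 3, strain under NS gave 5 calls against 19 and the strain mean 43 against 104. Leaving out single libraries gave 5 to 45 and 59 to 130 for these, 18 to 46 against 36 for strain under CRS (18, 19 and 20 without F344 CRS replicates 1, 2 and 3), 0 to 5 for CRS in F344 and for the mean CRS response (5 without F344 NS replicate 1), 0 to 2 for CRS in WKY (2 without WKY NS replicate 1) and 0 to 2 for the difference in response. With the 3 most abundant features removed, 2611 genes and 7 markers were tested, and Mmp9 was below the low count filter.

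Each marker had 57 to 990 counts, and intervals were up to 1.75 wide on the log2 scale for Csf3r, the marker with the most.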

Other observations

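Genes of other granulocytes were sparse in the same libraries. Siglec5, listed here among eosinophil markers, was lower in WKY: it stood at 0.255, 0.0 and 0.329 CPM in WKY CRS, 1.15, 2.62 and 0.774 CPM in WKY NS, 5.65, 4.44 and 3.25 CPM in F344 CRS and 4.96, 4.87 and 3.43 CPM in F344 NS. Every WKY library lay below every F344 library. It passed for the strain mean (log2 -2.86, adjusted p = 0.000116, edgeR's quasi-likelihood test) and under CRS (adjusted p = 0.000836), and it was called in all 19 alternatives of both. The 4 other eosinophil genes, Epx, Prg2, Ccr3 and Il5ra, had 4 to 17 counts each and were not tested, so the change of Siglec5 has no second eosinophil gene beside it. In WKY CRS replicate 2, the library with the highest Fcnb level, Prg2 stood at 4.80 CPM and Epx at 1.74 CPM, against 0.0 to 0.764 CPM in the other 11 libraries for both genes.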
